A study of Homo sapiens with 24 samples.

Results

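Gluconeogenesis, the route by which the liver makes glucose, was followed here through 9 genes in HepG2 cells: G6PC1, G6PC3, SLC37A4, PCK1, PCK2, FBP1, PC, PPARGC1A and FOXO1. Members were matched by gene ID, all 9 were present among 11927 named features, and 8 of the 9 passed the filter on low counts that left 11152 features for testing. The set was chosen by what KEAP1 guides did under the control siRNA, where G6PC1 and PCK1 were among the strongest falls, so values of that comparison are given as a description with no test. HepG2 is an established human liver cancer cell line. Cells were transduced with a lentiviral LentiCRISPRv2 vector, which carries Cas9 and 1 guide RNA, and selected with puromycin. The control guide sgCtrl, named sgAAVS168 in the labels, cuts at the AAVS1 safe harbour. KEAP1, the protein that marks the transcription factor NRF2 for degradation, was targeted with sgKEAP1-1 or sgKEAP1-2. The methods name no cloning step for these cells, and all groups carry the vector and Cas9. Each population received a non-targeting siRNA pool (siNC) or siRNA pools against the lysosomal gene regulators TFEB and TFE3 (siTFEB/siTFE3), and RNA was taken after 72 hours. This gave 6 groups of 4 libraries.

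In the liver, pyruvate carboxylase (PC) makes oxaloacetate in mitochondria and a phosphoenolpyruvate carboxykinase, cytosolic PCK1 or mitochondrial PCK2, converts it to phosphoenolpyruvate. Fructose-1,6-bisphosphatase (FBP1) bypasses phosphofructokinase later in the route. In the last step the transporter SLC37A4 carries glucose-6-phosphate into the endoplasmic reticulum, where G6PC1, the catalytic subunit of liver, or the widely expressed G6PC3 releases glucose. The coactivator PPARGC1A and the insulin-restrained transcription factor FOXO1 raise PCK1 and G6PC1 transcription in fasting.

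The promoters of the genes of the last step are shown because, under siTFEB/siTFE3, values of G6PC1 and SLC37A4 were lower with sgKEAP1-2. G6PC3, the paralogue of G6PC1, did not pass the test with either guide. G6PC1 passed the filter on low counts only through sgCtrl cells, so its p-value is no support for a fall. A link between promoter motifs and these levels was not tested. Each sequence is the 250 bases before the RefSeq start on GRCh38.p14, written 5′ to 3′ on the gene's strand. Capitals mark 5 motifs searched on both strands, which were the forkhead core TGTTT, the CREB half-site TGACG, the antioxidant response element core TGACNNNGC, the E-box core CACGTG and the TATA box TATAAA. G6PC1 is at chr17:42900549-42900798 on the plus strand, the first of 3 G6PC3 entries at chr17:44070423-44070672 on the plus strand, and the first of 2 SLC37A4 entries at chr11:119030878-119031127 on the minus strand.
G6PC1: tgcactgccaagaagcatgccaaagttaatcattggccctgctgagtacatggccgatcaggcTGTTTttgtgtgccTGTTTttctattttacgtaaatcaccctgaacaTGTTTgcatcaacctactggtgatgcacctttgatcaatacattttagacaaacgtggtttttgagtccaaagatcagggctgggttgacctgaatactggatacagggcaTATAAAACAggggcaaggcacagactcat
G6PC3: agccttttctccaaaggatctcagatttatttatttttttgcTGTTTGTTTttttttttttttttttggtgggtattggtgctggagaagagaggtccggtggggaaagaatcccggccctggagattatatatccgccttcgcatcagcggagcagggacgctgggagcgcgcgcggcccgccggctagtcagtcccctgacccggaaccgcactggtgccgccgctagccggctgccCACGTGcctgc
SLC37A4: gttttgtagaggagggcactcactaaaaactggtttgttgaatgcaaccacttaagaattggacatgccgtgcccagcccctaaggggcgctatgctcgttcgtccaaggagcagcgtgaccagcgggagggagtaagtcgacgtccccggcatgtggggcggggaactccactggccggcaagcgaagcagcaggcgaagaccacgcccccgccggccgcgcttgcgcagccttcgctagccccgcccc

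The G6PC1 window held 4 matches to the forkhead core, the motif bound by FOXO1 and its relatives, and 1 TATA box from 29 to 24 bases before the start. The last of the 4 lay on the other strand, from 25 to 21 bases before the start, and overlapped the TATA box. The G6PC3 window held 2 forkhead cores that shared 1 base and 1 E-box core from 11 to 6 bases before the start. The SLC37A4 window held none of the 5 motifs. The counts depend on the start used, since the second SLC37A4 entry held 1 forkhead core and 1 TATA box, and the other G6PC3 entries held 2 E-box cores each. GC content was 44% for G6PC1, 55.6% for G6PC3 and 63.2% for SLC37A4, against a median of 58.0% over all promoter entries. Of 35116 promoter windows of this length, 40.4% held the forkhead core, 21.2% the CREB half-site, 10.9% the antioxidant response element core, 6.34% the E-box core and 10.7% the TATA box. A match is a description of the letters and not a bound site. RefSeq promoter entries were matched for 8 of the 9 members, all but PCK1.

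Libraries held between 3527000 and 4600951 reads, of which 1.35% to 2.57% fell in rows without a gene ID. The first principal component (31.8% of the variance) separated the 8 sgCtrl libraries from the 16 KEAP1-guide libraries, and the second (11.8%) set apart replicate 1 of sgKEAP1-1 under siNC and replicate 1 of sgKEAP1-2 under siTFEB/siTFE3. In the latter library 4.56% of named reads came from MTRNR2L8, against at most 1.26% elsewhere. Under siTFEB/siTFE3, KEAP1 RNA fell by 0.61 (log2) in sgKEAP1-1 cells (limma adjusted p = 2.59e-04) and differed by -0.13 with sgKEAP1-2 (adjusted p = 0.422), while the NRF2 target NQO1 rose by 1.30 and 1.48 (adjusted p = 3.20e-11 and 8.81e-13). RNA of NFE2L2, the gene of NRF2, differed by -0.22 and -0.14 (limma adjusted p = 0.405 and 0.534). After knockdown TFE3 had log2 fold changes of -1.57, -1.74 and -1.69 in sgCtrl, sgKEAP1-1 and sgKEAP1-2 cells and passed in each (limma adjusted p = 0.0237, 0.00101 and 3.48e-04). TFEB had -1.96, -2.15 and -1.67, of which the sgCtrl value did not pass (limma adjusted p = 0.0857, 0.0130 and 0.0418). All 10 hepatocyte markers were in the table. Of the 9 markers of blood, vessel and stromal cells 2 were, CD68 and PDGFRB, with a summed level of 3.94 to 13.5 CPM (reads scaled to a common library size).

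The question put to the siTFEB/siTFE3 libraries, which did not choose the genes, was whether KEAP1 disruption lowers gluconeogenic transcripts when TFEB and TFE3 are depleted. PCK1 was lower with both guides and SLC37A4 with sgKEAP1-2, while the isoenzymes G6PC3 and PCK2, PC and both regulators did not pass the test. G6PC1 also passed with sgKEAP1-2, but it entered the test only through the cells in which it is high. These are separate libraries of the same transduced populations, and both guides are set against the same sgCtrl libraries. With sgKEAP1-1, 1 of 8 tested members was called and it was lower, where 10.5% of all 11152 features were called in either direction. With sgKEAP1-2, 3 of 8 were called, all lower, where 20.2% of all features were called. PCK1 was the 1 member called with both guides, against 9.55% of all features called with both in one direction. G6PC1 passed the filter through sgCtrl cells, where 6 of 8 libraries reached the filter's level of 2.44 CPM and 0 of 16 KEAP1-guide libraries did, and for PCK1 the counts were 8 of 8 and 8 of 16. Without the 2 libraries set apart, an alternative chosen after seeing the data, the sgKEAP1-2 values were -4.16 for PCK1, -0.87 for SLC37A4 and -3.07 for G6PC1, and the last no longer passed (limma adjusted p = 0.00450, 7.48e-04 and 0.0520). Counts over members that passed the filter are no support for a change of the set. With no filter, the same 1 and 3 members were called.

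**Figure D1:**
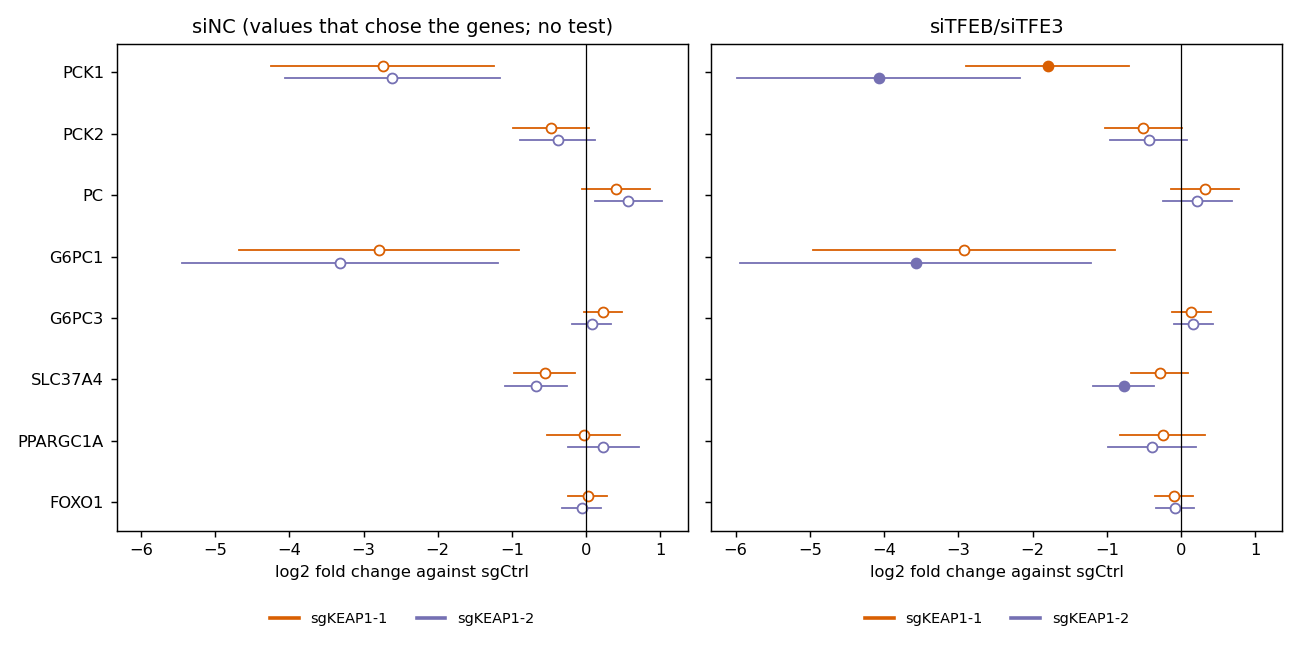
Log2 fold change (x axis) of each tested gene (y axis) for sgKEAP1-1 (orange) and sgKEAP1-2 (purple) against sgCtrl, with 95% confidence intervals of the limma fit, under siNC on the left and siTFEB/siTFE3 on the right. Filled points passed an adjusted p of 0.05. Under siTFEB/siTFE3, PCK1 lies at -1.80 and -4.07 and G6PC1 at -2.93 and -3.57, and the other genes lie between -0.77 and 0.33. Points under siNC were not tested.

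G6PC1 (GRCh37 chromosome 17, 41052814 to 41066455, plus strand) releases the glucose that hepatocytes export. Under siTFEB/siTFE3, the 4 sgCtrl libraries held 7, 87, 42 and 15 reads, the sgKEAP1-1 libraries 3, 4, 1 and 5, and the sgKEAP1-2 libraries 0, 5, 1 and 4. The sgCtrl libraries varied widely. The lowest of them, at 1.84 CPM, lay above the highest of the 8 libraries with a KEAP1 guide, at 1.22 CPM. Levels were 9.09 ± 8.66 CPM in sgCtrl cells, 0.787 ± 0.366 with sgKEAP1-1 and 0.593 ± 0.574 with sgKEAP1-2 (SD, n = 4 each). G6PC1 passed the filter only through sgCtrl cells, where 6 of 8 libraries reached its level against 0 of 16 with a KEAP1 guide. Its p-values and the separation of its groups are therefore a description and no support for a fall. The share of all features whose groups separate in this way is not given here. With sgKEAP1-2, G6PC1 was lower by 3.57 in log2 units (limma adjusted p = 0.0275, SE 1.15). The sgKEAP1-1 difference of -2.93 (SE 0.99) did not pass by limma (adjusted p = 0.0597), whereas edgeR and DESeq2 called it (adjusted p = 0.00171 and 6.77e-04). The sgKEAP1-2 call rested on few reads and was lost without replicate 3 of sgCtrl (limma adjusted p = 0.0513) or without any 1 of the sgKEAP1-2 libraries 1 to 4 (adjusted p = 0.0640, 0.0603, 0.0818 and 0.0655), and the log2 size depends on the handling of near-zero counts.

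Under siNC, the comparison that selected the gene, G6PC1 had 9, 56, 37 and 34 reads in sgCtrl cells, 1, 8, 4 and 5 with sgKEAP1-1 and 5, 0, 4 and 5 with sgKEAP1-2. In both arms replicate 1 of sgCtrl was the lowest sgCtrl library and replicate 2 the highest. Levels were 8.75 ± 4.97, 1.17 ± 0.813 and 0.868 ± 0.615 CPM (SD, n = 4 each), and log2 fold changes were -2.79 (SE 0.92) and -3.32 (SE 1.04).

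PCK1 (GRCh37 chromosome 20, 56136136 to 56143177, plus strand), the cytosolic carboxykinase and the committed enzyme of the route, had 37, 146, 79 and 27 reads in sgCtrl cells under siTFEB/siTFE3. The sgKEAP1-1 libraries held 20, 28, 10 and 13 reads and the sgKEAP1-2 libraries 3, 6, 4 and 1. After scaling, sgCtrl libraries ran from 6.72 to 35.3 CPM and KEAP1-guide libraries from 0.232 to 6.60 CPM, so the groups did not overlap, by a narrow margin for sgKEAP1-1. Levels were 17.5 ± 12.9, 4.42 ± 1.95 and 0.879 ± 0.504 CPM (SD, n = 4 each). PCK1 fell by 1.80 with sgKEAP1-1 (limma adjusted p = 0.0287, SE 0.54). With sgKEAP1-2 it fell by 4.07 (limma adjusted p = 0.00212, SE 0.93), and the second call held in all 22 alternatives.

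The call with sgKEAP1-1 was lost when replicate 2 or 3 of sgCtrl was left out (limma adjusted p = 0.0906 and 0.0670) and when replicate 2, 3 or 4 of sgKEAP1-1 was (adjusted p = 0.0524, 0.0890 and 0.103). Leaving out replicate 2 or replicate 3 of all groups lost the call too, and the highest limma adjusted p over the 22 alternatives was 0.25. Under siNC, PCK1 reads were 24, 47, 61 and 77 in sgCtrl cells, 1, 11, 7 and 21 with sgKEAP1-1 and 9, 4, 11 and 8 with sgKEAP1-2. Levels there were 13.4 ± 5.69, 2.53 ± 2.04 and 1.99 ± 0.685 CPM (SD, n = 4 each), with log2 fold changes of -2.74 (SE 0.73) and -2.61 (SE 0.71).

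**Figure D2:**
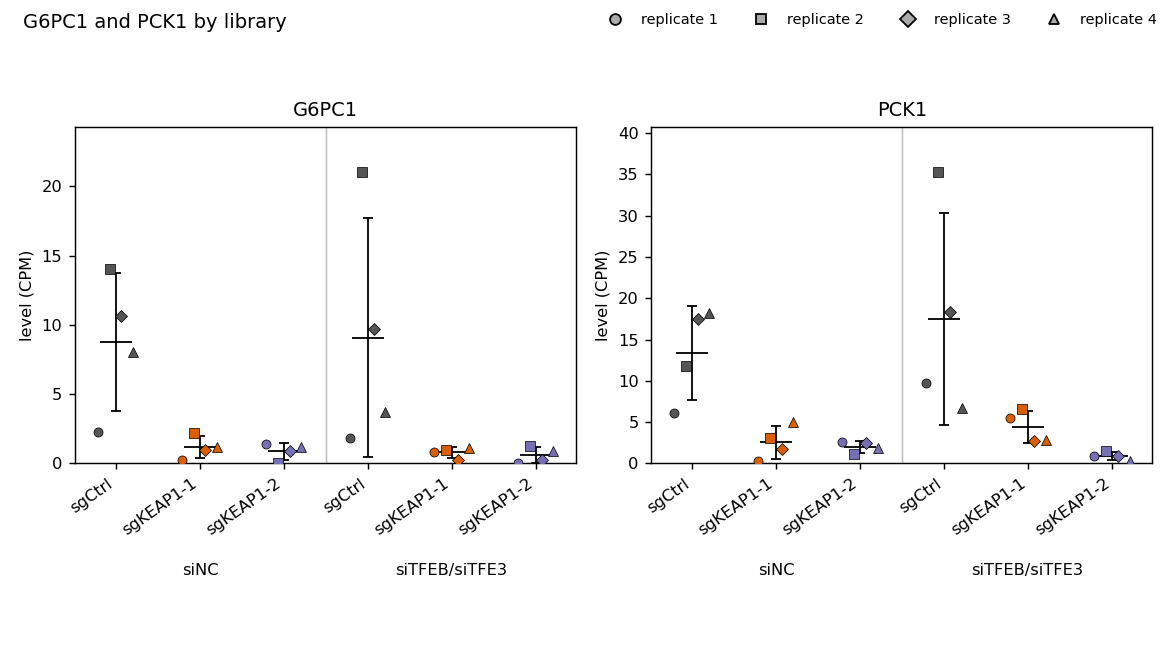
Level in CPM (y axis, linear) of G6PC1 and PCK1 in each of 24 libraries, by guide and siRNA (x axis), with symbols for the replicate number, horizontal lines for group means and bars for 1 SD (n = 4). In both arms every KEAP1-guide library lies below every sgCtrl library for both genes. This is a description, since the siNC arm chose the genes and G6PC1 passed the filter only through sgCtrl cells. The margin is as narrow as 2.27 against 2.22 CPM (G6PC1, siNC) and 6.72 against 6.60 CPM (PCK1, siTFEB/siTFE3). Under siTFEB/siTFE3 replicate 2 is the highest sgCtrl library at 21.1 CPM for G6PC1 and 35.3 CPM for PCK1.

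SLC37A4 (GRCh37 chromosome 11, 118894461 to 118901616, minus strand), the glucose-6-phosphate transporter, was measured with more reads, 60 to 190 in each library. Under siTFEB/siTFE3 it was at 36.8, 31.9, 44 and 40.3 CPM in sgCtrl cells, at 37.1, 31.6, 30.9 and 26.6 CPM with sgKEAP1-1 and at 27.7, 29.5, 18.2 and 16.9 CPM with sgKEAP1-2. All 4 sgKEAP1-2 libraries lay below every sgCtrl library, and the sgKEAP1-1 libraries overlapped with them. SLC37A4 fell by 0.77 with sgKEAP1-2 (limma adjusted p = 0.00629, SE 0.20), a 1.71-fold lower level. The call was lost without replicate 3 (-0.59, limma adjusted p = 0.149) or replicate 4 (-0.60, adjusted p = 0.104) of all groups. With sgKEAP1-1 it differed by -0.29 (limma adjusted p = 0.414, SE 0.19). Under siNC the log2 fold changes were -0.56 (SE 0.20) and -0.67 (SE 0.20). The direct contrast of the guides, averaged over both siRNAs, was -0.30 (SE 0.15, limma adjusted p = 0.588), so a difference between guides was not shown. The 3′ end of SLC37A4 lies by TRAPPC4 on the other strand, and the strand setting of the counting was not stated. TRAPPC4 differed by -0.06 and -0.01 with the guides (limma adjusted p = 0.815 and 0.970).

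G6PC3 (GRCh37 chromosome 17, 42147988 to 42159519, plus strand), the widely expressed phosphatase of the same reaction, showed no such fall. Under siTFEB/siTFE3 its levels were 49.8 ± 9.13 CPM in sgCtrl cells, 53.9 ± 6.38 with sgKEAP1-1 and 54.5 ± 2.81 with sgKEAP1-2 (SD, n = 4 each). The log2 fold changes were 0.14 (95% CI -0.12 to 0.40, limma adjusted p = 0.585) and 0.17 (95% CI -0.09 to 0.43, adjusted p = 0.398). Its 3′ end lies by HDAC5, which differed by -0.29 and -0.13 (limma adjusted p = 0.460 and 0.703).

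PCK2 (GRCh37 chromosome 14, 24563262 to 24579807, plus strand), the mitochondrial carboxykinase, was at 196 ± 60.2 CPM in sgCtrl cells under siTFEB/siTFE3, 134 ± 21.9 with sgKEAP1-1 and 146 ± 55.4 with sgKEAP1-2 (SD, n = 4 each). The differences of -0.51 (SE 0.25, limma adjusted p = 0.244) and -0.44 (SE 0.25, adjusted p = 0.246) did not pass. Replicate 1 was the lowest of its group for PCK2 in all 6 groups, at 79.6 to 138 CPM, and without replicate 1 the sgKEAP1-1 difference of -0.62 passed (limma adjusted p = 0.00953). NRL, which lies at the 3′ end of PCK2 on the other strand, had differences of -0.57 and -0.47 (limma adjusted p = 0.128 and 0.154), and reads of the pair cannot be told apart without strand.

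PC (GRCh37 chromosome 11, 66615888 to 66725857, minus strand), which feeds oxaloacetate into the route, was measured at 11.0 ± 2.04, 13.8 ± 3.11 and 12.7 ± 2.32 CPM under siTFEB/siTFE3 (SD, n = 4 each). Its log2 fold changes were 0.33 (95% CI -0.14 to 0.79, limma adjusted p = 0.441) and 0.22 (95% CI -0.25 to 0.69, adjusted p = 0.555). Under siNC they were 0.40 (SE 0.22) and 0.57 (SE 0.22).

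FBP1 (GRCh37 chromosome 9, 97365415 to 97402531, minus strand) had too few reads to be tested. Under siNC the group totals were 19 reads in sgCtrl cells, 17 with sgKEAP1-1 and 6 with sgKEAP1-2, and under siTFEB/siTFE3 they were 36, 21 and 10. Single libraries held 0 to 13 reads, and in each arm the sgCtrl libraries overlapped with those of both guides. The 3′ end of FBP1 lies by PCAT7 on the other strand, which is also in the count table. A difference in FBP1 could not be judged at this depth.

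Neither regulator among the 9 genes passed. FOXO1 (GRCh37 chromosome 13, 41129804 to 41240778, minus strand) stood at 47.3 ± 4.07 CPM in sgCtrl cells under siTFEB/siTFE3, 44.2 ± 4.69 with sgKEAP1-1 and 44.6 ± 4.35 with sgKEAP1-2 (SD, n = 4 each). Its log2 fold changes of -0.10 (95% CI -0.36 to 0.16) and -0.08 (95% CI -0.34 to 0.18) had limma adjusted p of 0.730 and 0.714. The 3′ end of FOXO1 lies by the non-coding gene ENSG00000288542 on the same strand, whose reads may not be told apart from those of FOXO1. FOXO1 protein is controlled by phosphorylation and location, which these counts do not measure. For PPARGC1A (GRCh37 chromosome 4, 23756664 to 23905712, minus strand) the KEAP1 differences were -0.25 (SE 0.28, limma adjusted p = 0.677) and -0.39 (SE 0.29, adjusted p = 0.378). The 3′ end of PPARGC1A lies by the non-coding gene ENSG00000250137 on the other strand.

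**Figure D3:**
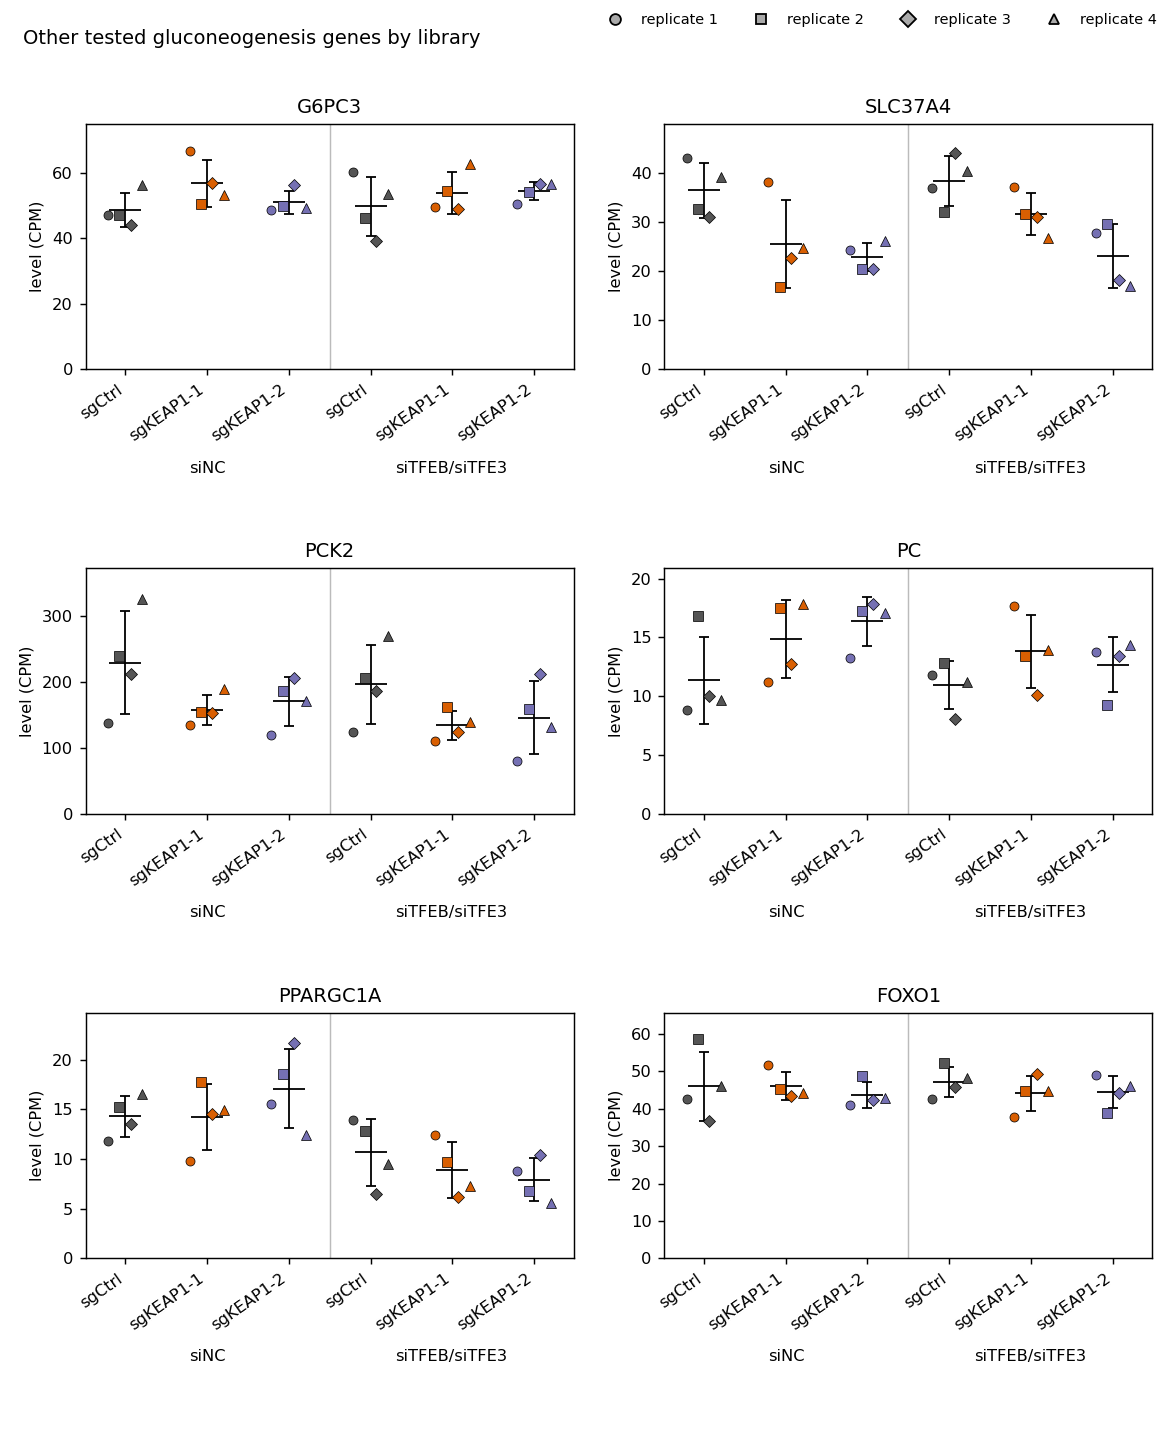
Level in CPM (y axes, linear from 0) of G6PC3, SLC37A4, PCK2, PC, PPARGC1A and FOXO1 in each library, by guide and siRNA, with symbols for the replicate number, lines for group means and bars for 1 SD (n = 4). SLC37A4 under siTFEB/siTFE3 lies at 31.9 to 44 CPM in sgCtrl cells and at 16.9 to 29.5 CPM with sgKEAP1-2, while the groups overlap for G6PC3, PC and FOXO1.

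Libraries with TFEB and TFE3 depleted were set against siNC libraries of the same guide to ask whether these genes depend on the pair. No member passed in any background by limma or edgeR, where 0.0179% of all features were called in sgCtrl cells, 0.0897% in sgKEAP1-1 cells and 0.359% in sgKEAP1-2 cells. The siNC libraries of these contrasts include those that selected G6PC1 and PCK1. PPARGC1A came nearest. It was at 15.6, 18.6, 21.7 and 12.5 CPM in sgKEAP1-2 cells under siNC and at 8.84, 6.83, 10.4 and 5.57 CPM after knockdown, so the 4 knockdown libraries lay below all 4 siNC libraries. The difference was -1.11 in log2 units (limma adjusted p = 0.0754, SE 0.27), and it was past the threshold with DESeq2, with sample quality weights and without replicate 1. At an unadjusted p of 3.18e-04 it was 1 of 1170 features with an unadjusted p under 0.05 in this comparison.

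In sgKEAP1-1 cells PPARGC1A was at 9.75, 17.8, 14.5 and 15.0 CPM under siNC and at 12.5, 9.66, 6.12 and 7.32 CPM after knockdown, a difference of -0.70 (limma adjusted p = 0.482, unadjusted 0.0142, SE 0.27). In sgCtrl cells it was at 11.9, 15.3, 13.5 and 16.6 CPM under siNC and at 14, 12.8, 6.48 and 9.45 CPM after knockdown, a difference of -0.49 (limma adjusted p = 1.00, SE 0.25). Groups overlapped in both backgrounds. The averaged interaction for PPARGC1A, the KEAP1 effect under siTFEB/siTFE3 minus that under siNC, was -0.42 (SE 0.32, limma adjusted p = 0.999).

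PCK1 had wide intervals after knockdown, with log2 fold changes of 0.24 (95% CI -0.57 to 1.05) in sgCtrl cells, 1.18 (95% CI -0.49 to 2.86) in sgKEAP1-1 cells and -1.22 (95% CI -3.47 to 1.04) in sgKEAP1-2 cells (limma adjusted p = 1.00, 0.739 and 0.737). For G6PC1 they were -0.18 (95% CI -1.27 to 0.91), -0.31 (95% CI -2.87 to 2.24) and -0.43 (95% CI -3.42 to 2.56), with limma adjusted p of 1.00, 0.974 and 0.944. These counts can therefore neither show nor bound closely an effect of knockdown on either gene. For FOXO1 the differences were 0.05, -0.07 and 0.03 and for G6PC3 0.01, -0.07 and 0.11, each with an SE of 0.13.

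**Figure D4:**
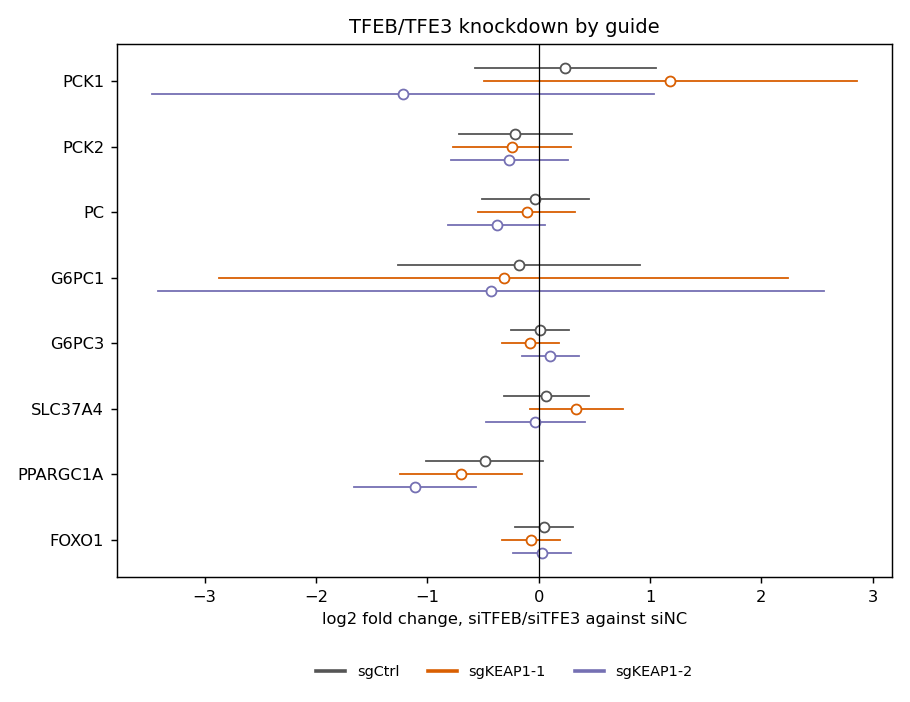
Log2 fold change (x axis) of each tested gene (y axis) for siTFEB/siTFE3 against siNC in sgCtrl (grey), sgKEAP1-1 (orange) and sgKEAP1-2 (purple) cells, with 95% confidence intervals of the limma fit. Open points did not pass an adjusted p of 0.05, and all 24 points are open. PPARGC1A lies at -0.49, -0.70 and -1.11.

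The interaction asked whether the effect of KEAP1 disruption on these genes depends on TFEB and TFE3. No member was called, and 0% of all features were (0 by limma, edgeR and DESeq2, with 348 at an unadjusted p under 0.05). The siNC arm of this contrast holds the values that selected G6PC1 and PCK1 for their falls, so their estimates are a description. For G6PC1 the interaction was -0.19 (95% CI -2.44 to 2.05) and for PCK1 -0.26 (95% CI -1.88 to 1.36). For PCK1 it was 0.94 (SE 0.91) with sgKEAP1-1 and -1.46 (SE 1.17) with sgKEAP1-2. In the contrast of sgKEAP1-2 with sgKEAP1-1 over both siRNAs, 0 members and 0.117% of all features were called, and PCK1 was at -1.07 (SE 0.68, limma adjusted p = 0.709).

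The hepatocyte markers moved along with G6PC1 and PCK1. Their summed level was 25220 to 36010 CPM in sgCtrl cells under siTFEB/siTFE3, 18230 to 19100 with sgKEAP1-1 and 14840 to 21860 with sgKEAP1-2. With each guide 7 of 10 markers fell and 0 rose, where 10.5% and 20.2% of all features were called. The median log2 fold change of the markers was -0.58 for each guide. AFP, the fetal plasma protein that HepG2 makes, fell by 1.43 and 2.32 (limma adjusted p = 1.48e-04 and 7.66e-08), while TTR differed by -0.17 and -0.20 (adjusted p = 0.726 and 0.567). In bulk RNA, fewer cells of a kind and less RNA per cell cannot be told apart. The part of this shift in the result for the gluconeogenesis genes was not tested.

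The genes most like G6PC1 over all 24 libraries, by Pearson's r of log2 CPM, were TMT1A (r = 0.905), AFP (0.900), FABP1 (0.899), SELENOP (0.894) and SERPINA7 (0.889). For PCK1 they included AFP (r = 0.925), SELENOP (0.917), LINC00261 (0.901) and SLC39A14 (0.898). G6PC1 and PCK1 correlated with each other at r = 0.858, which placed PCK1 at rank 20 for G6PC1 and G6PC1 at rank 33 for PCK1 among 10537 genes. These values include the gap between sgCtrl and KEAP1-guide libraries. On deviations from group means, which leave it out, r between G6PC1 and PCK1 was 0.669. The closest genes were then SOCS1 (r = 0.794), GRPEL2 (0.780), TMT1A (0.777), GOLT1B (0.776) and PFKFB4 (0.773) for G6PC1. For PCK1 they were SULT2A1 (0.832), SELENOP (0.811), KDM3A (0.798), CCNG1 (0.787) and ITIH2 (0.786). The points share library depth and group, and few reads underlie the KEAP1-guide values.

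The rest of glucose metabolism was read from lists of genes under siTFEB/siTFE3. Of 11 tested one-way glycolysis enzymes and genes that regulate them in either direction, 4 rose with sgKEAP1-1 and 5 with sgKEAP1-2 and 0 fell with either. The share called over all features was 10.5% and 20.2%. HK1, a hexokinase, rose by 2.40 and 2.79 (limma adjusted p = 0.0163 and 0.00214), from 0.924 ± 0.667 CPM in sgCtrl cells to 4.87 ± 2.31 and 6.02 ± 1.80 (SD, n = 4 each). The sgCtrl libraries held 1 to 7 reads of HK1, at most 1.69 CPM, below the filter's level of 2.44 CPM. HK1 entered the test through KEAP1-guide libraries, so its p-values are no support for a rise, and it is among the genes counted here. PFKP, the platelet-type phosphofructokinase, rose by 2.20 and 2.74 (limma adjusted p = 2.56e-04 and 5.13e-06), from 3.29 ± 1.20 CPM to 14.8 ± 5.01 and 21.2 ± 5.23 (SD, n = 4 each). GCKR, the regulatory protein of glucokinase, rose by 1.19 and 1.48 (limma adjusted p = 6.07e-04 and 1.47e-05). GCKR is an inhibitor of glucokinase and not an enzyme of the pathway. The more abundant hexokinase HK2, at 94.8 CPM in sgCtrl cells, differed by 0.335 and 0.067 and did not pass (limma adjusted p = 0.586 and 0.916). The phosphofructokinase PFKL, at 74.2 CPM, differed by -0.35 and -0.25 and did not pass (adjusted p = 0.142 and 0.252). Pyruvate kinase PKM, at 658 CPM, rose by 0.62 and 0.80 (adjusted p = 0.0179 and 0.00117). The median of the list was 0.62 and 0.39, beside 0.00 and 0.01 over all features.

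Among 11 tested enzymes shared by glycolysis and gluconeogenesis, 3 rose and 1 fell with sgKEAP1-1, and 4 rose and 1 fell with sgKEAP1-2. The share called over all features was 10.5% and 20.2%. Aldolase ALDOA rose by 0.53 and 0.58 (limma adjusted p = 8.23e-04 and 1.66e-04), isomerase GPI by 0.47 and 0.59 (adjusted p = 0.00845 and 6.29e-04) and enolase ENO1 by 0.36 and 0.47 (adjusted p = 0.0287 and 0.00196). The muscle enolase ENO3 fell by 0.94 and 1.40 (adjusted p = 0.00994 and 3.15e-04). The list's median was 0.32 and 0.21.

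Of 18 tested genes that handle pyruvate and mitochondrial shuttles, 0 rose and 3 fell with sgKEAP1-1 and 0 rose and 5 fell with sgKEAP1-2, beside the 10.5% and 20.2% of all features called. The list's median was -0.01 and -0.07. MPC1 fell by 0.49 and 0.97 (limma adjusted p = 0.0204 and 1.47e-05) and MPC2 by 0.50 and 0.61 (adjusted p = 0.00919 and 9.10e-04). The pair forms the carrier that brings pyruvate to PC in mitochondria. SLC25A10, the dicarboxylate carrier, fell by 0.63 and 0.78 (adjusted p = 0.0263 and 0.00347).

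Of 17 tested genes of amino acid and glycerol entry, 1 rose and 1 fell with sgKEAP1-1, and 1 rose and 3 fell with sgKEAP1-2, counts near the background of 10.5% and 20.2%, with a median of -0.13 and -0.38. GLUD1, glutamate dehydrogenase, fell by 0.76 and 0.91 (limma adjusted p = 1.37e-04 and 6.14e-06), and HPD of tyrosine breakdown rose by 0.71 and 0.63 (adjusted p = 0.0122 and 0.0170). Of 18 tested genes of glucose transport and glycogen, 2 rose and 1 fell with sgKEAP1-1 and 4 rose and 1 fell with sgKEAP1-2, beside the same background, with a median of 0.09 and 0.01. The glucose transporters SLC2A3 and SLC2A1 rose by 0.92 and 0.99 with sgKEAP1-1 (adjusted p = 6.60e-05 and 0.0179) and by 1.09 and 0.98 with sgKEAP1-2 (adjusted p = 3.12e-06 and 0.0109). PGM1, which joins glycogen to glucose-6-phosphate, fell by 0.66 and 0.92 (adjusted p = 4.49e-04 and 4.15e-06).

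Of 35 tested transcriptional regulators of the route, 2 rose and 4 fell with sgKEAP1-1, and 3 rose and 7 fell with sgKEAP1-2, with a median of -0.14 and -0.10. The share called over all features was 10.5% and 20.2%. With both guides 14.3% of the list was called, beside 9.55% of all features. CREB3L3, a hepatic activator of fasting genes, fell by 1.60 and 2.11 (limma adjusted p = 1.03e-04 and 6.26e-06), from 24.7 ± 8.55 CPM in sgCtrl cells to 7.68 ± 0.773 and 5.46 ± 1.47 (SD, n = 4 each). MLXIPL, the glucose-responsive factor ChREBP, fell by 1.16 and 1.39 (adjusted p = 0.0126 and 0.00172). HNF4A, a liver transcription factor that is also 1 of the 10 hepatocyte markers, fell by 0.54 and 0.62 (adjusted p = 0.00222 and 2.95e-04). PPARGC1B, the relative of PPARGC1A, rose by 2.62 and 2.21 (adjusted p = 1.96e-04 and 8.84e-04), from 1.05 ± 0.697 CPM to 6.00 ± 1.08 and 4.69 ± 1.75 (SD, n = 4 each). Its sgCtrl level was below the filter's 2.44 CPM, so it entered the test through KEAP1-guide cells, and its p-values are no support for a rise. PPARGC1B is among the genes counted here and in the 14.3%, so that share is no support for a change of the list. TRIB1, a pseudokinase, rose by 0.65 and 0.76 (adjusted p = 0.0199 and 0.00333).

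Of 17 tested insulin- and FOXO-responsive liver genes, 1 rose and 2 fell with sgKEAP1-1, and 1 rose and 3 fell with sgKEAP1-2, near the background of 10.5% and 20.2%, with a median of -0.04 and -0.07. MTTP, which loads lipid onto apolipoprotein B, fell by 1.90 and 3.25 (limma adjusted p = 1.68e-07 and 4.50e-10), from 137 ± 43.8 CPM to 35.6 ± 5.65 and 13.9 ± 3.44 (SD, n = 4 each). APOC3 fell by 1.01 and 1.03 (adjusted p = 2.18e-04 and 9.34e-05). CPT1A, the entry enzyme of mitochondrial fat oxidation, rose by 0.76 and 0.99 (adjusted p = 7.56e-05 and 7.33e-07). In knockdown against siNC, 0 of the 126 tested genes of these 7 lists passed by limma in any background. The shares called over all features were 0.0179% in sgCtrl, 0.0897% in sgKEAP1-1 and 0.359% in sgKEAP1-2 cells. A count of 0 is near these shares and is no result about the lists. At an unadjusted limma p under 0.05 there were 10, 10 and 19 list genes, beside 516, 901 and 1170 of all 11152 features. DESeq2 called SLC25A10 and SESN1 in sgKEAP1-1 cells and edgeR called SLC25A10, which are named after their values were seen, and both tools called 0 in the other backgrounds. MTTP was the 1 list gene called between the guides (limma adjusted p = 0.0307), where 0.117% of all features were called.

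**Figure D5:**
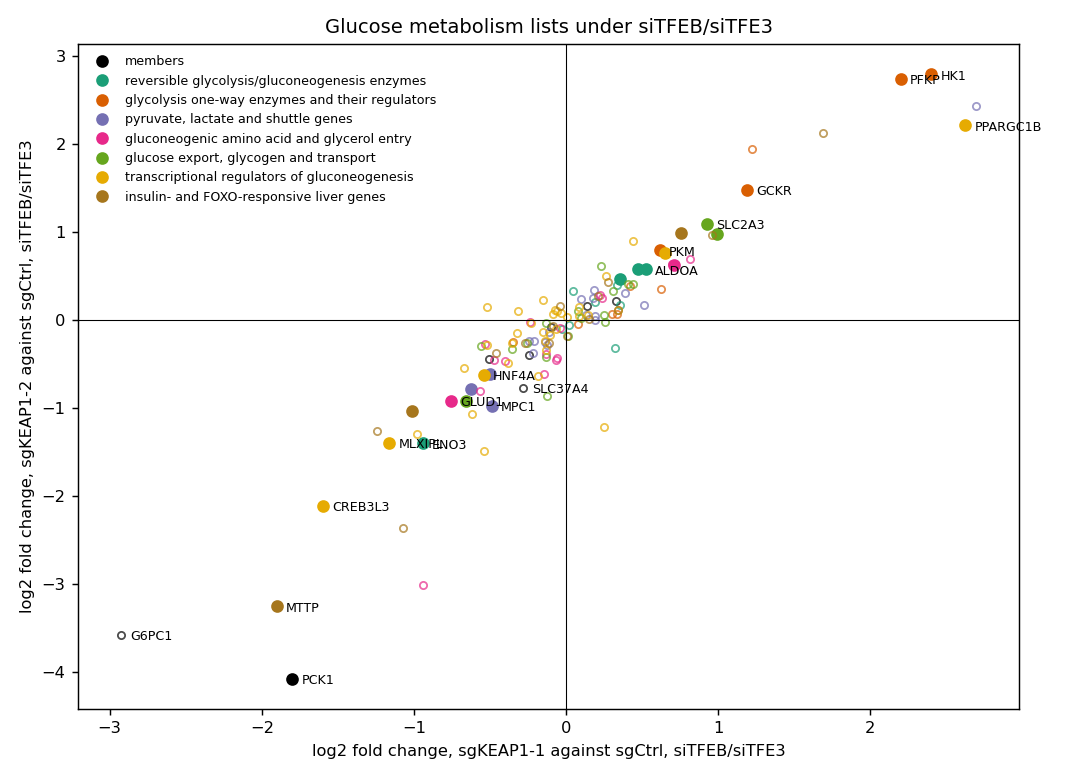
Log2 fold change against sgCtrl under siTFEB/siTFE3 with sgKEAP1-1 (x axis) and sgKEAP1-2 (y axis) for the tested genes of 8 lists, coloured by list. Filled points passed an adjusted p of 0.05 with both guides, which share the same sgCtrl libraries. PCK1 is filled and lies at -1.80 and -4.07, G6PC1 is open, and HK1 (2.40 and 2.79) and PFKP (2.20 and 2.74) lie at the other end. G6PC1, HK1 and PPARGC1B each passed the filter through the cells in which they are high.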

How the data were processed

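Reads of 24 QuantSeq 3′ libraries of HepG2 RNA lie near the ends of polyadenylated transcripts. The values the authors deposited are raw read counts per gene, 1 column per library, keyed by Entrez ID. The study's methods name alignment to hg19 with STAR and counting with featureCounts, while the submitters' processing notes name hg38, cutadapt 1.16, STAR 2.7.5b and featureCounts 1.6.3. The table holds no coordinates. Gene positions are from the GENCODE annotation of GRCh37. The annotation and strand setting of the counting are not given in the sources used here. Genes below an unstated level were absent from the deposited table, whose smallest row total was 15 reads.

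Rows without a gene ID were left out of library sizes. Features were filtered with filterByExpr by group (minimum count 10), scaled by TMM and fitted by the study's approach, limma-voom, as 6 group means over 24 libraries. R 4.3.3 was used with limma 3.58.1 and edgeR 4.0.16. Tests were two-sided, with Benjamini-Hochberg adjustment over 11152 features and a threshold of 0.05. CPM use TMM-scaled library sizes. Correlations used log2 CPM with a prior count of 2, over genes with a mean of at least 10 reads. Alternatives covered scaling, filtering, the test (edgeR, DESeq2 1.42.0), weights, libraries left out and the replicate number.

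Members and lists were chosen with earlier results of these data known. All members were named, and from each other list up to 3 genes in each direction with the largest mean change over both guides among those past the threshold with both. HK2, PFKL and PKM were named outside this rule, for their level. For G6PC1 and PCK1 the 5 genes with the highest correlation were to be named, and not every one is reported here. Nothing states that libraries of a group came from separate cultures, so p-values measure the spread between libraries, which may be technical.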

Additional observations from a re-analysis of the deposited data

Results flagged for a closer look

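In 54 groups of 4 libraries (9 genes in 6 groups), 4 libraries stood far from the other libraries of their group by Dixon's test, which flags about 1 in 20 groups by chance. G6PC3 was at 56.3 CPM in replicate 3 of sgKEAP1-2 under siNC, against 48.6 to 49.8 CPM in the others. FBP1 was at 0.504 CPM in replicate 1 of sgCtrl under siNC, against 1.42 to 1.5 CPM, a gap of few reads. PC was at 16.8 CPM in replicate 2 of sgCtrl under siNC, against 8.83 to 10.1 CPM, and at 13.3 CPM in replicate 1 of sgKEAP1-2 under siNC, against 17.1 to 17.9 CPM. None of these libraries is among those compared in the test of KEAP1 guides under siTFEB/siTFE3.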

How the results depend on the processing

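With sgKEAP1-1 under siTFEB/siTFE3, 1 member (PCK1) was called, and 2 were with edgeR, DESeq2, sample quality weights or without the 2 libraries apart on the second component, an alternative chosen after seeing the data. Leaving out libraries gave 0 to 3 members. With sgKEAP1-2, 3 members were called, and leaving out libraries gave 1 to 3. For knockdown in sgKEAP1-2 cells the count of 0 became 1 (PPARGC1A) with DESeq2, with sample quality weights and, in a range of 0 to 1 over libraries left out, without replicate 1. G6PC1 with sgKEAP1-2 passed in 13 of 21 alternatives and with sgKEAP1-1 in 7 of 21. PCK1 with sgKEAP1-1 passed in 15 of 22 and SLC37A4 with sgKEAP1-2 in 20 of 22. Without the 2 libraries apart, G6PC1 with sgKEAP1-2 had a limma adjusted p of 0.0520. In the fits with only the libraries compared, G6PC1 did not pass the filter with either guide. No called member changed direction, scaling moved the median of all features by at most 0.023, and the cause of the other differences was not tested. Depth limits FBP1, G6PC1 and PCK1, whose KEAP1-guide libraries held 0 to 28 reads.

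Same-numbered libraries share a prefix in the labels that is not explained. Their deviations from group means correlated above 0.1 in 10 of 15 pairs for number 1 and in 5, 2 and 3 of 15 for numbers 2 to 4, so the numbers were not taken to pair samples. With the number as a replicate block, 3 members were called with sgKEAP1-1 (G6PC1, PCK1 and PCK2), and the counts of the other comparisons were the same as without it.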
